A study of Sus scrofa with 12 samples.

Results

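Golgins are long coiled-coil proteins that are anchored to Golgi membranes at one end and catch passing vesicles with the rest of their length, so that cargo is delivered to the right cisterna. Related rod-like proteins do the same work on early endosomes, or hold motor proteins on the endoplasmic reticulum (ER). Small GTPases of the ARL, ARF and RAB families place these proteins on their membranes, and SNAREs complete fusion once a vesicle has been caught.

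The genes described here are 10 golgins and coiled-coil membrane tethers: GOLGB1, GOLGA2, GOLGA4, GOLGA5, GCC1, GCC2, TRIP11, EEA1, CCDC186 and KTN1. They were taken by symbol from a count table of 31908 genes, and were chosen because CCDC186, EEA1, GOLGB1 and KTN1 were higher in all 3 treatments than in vehicle. Their differences from vehicle are therefore a description, given with no p-value. Of the 10 genes, 9 had a row under their symbol, and all 9 were among the 13216 genes with enough counts to be tested. GOLGA2 was not analysed here.

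The samples were wild-type porcine aortic valve interstitial cells (paVICs), the fibroblast-like cells of the valve leaflet, sequenced as poly(A) RNA in 12 libraries, 3 for each of 4 groups. Cells were held for 24 h in low-serum medium with 1% bovine growth serum and received vehicle alone (0.6% DMSO and 0.1% ethanol), 10 µM lysophosphatidylcholine (LPC), 60 µM dantrolene, or LPC + dantrolene at those doses. LPC is a bioactive phospholipid of oxidised lipoproteins, and dantrolene is an inhibitor of ryanodine receptors, the calcium release channels of the ER. Each group held 1 library from each of 3 primary isolations of cells pooled from several hearts, and isolation and replicate number are the same thing in these data.

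Library totals ran from 16489684 to 24105935 counts. Among 11 interstitial cell markers, every one was detected and their sum was 58770 to 111300 CPM (counts scaled to library size). The sums for endothelial markers (48.1 to 88.4 CPM) and leukocyte markers (13.2 to 28.5 CPM) were small, with PTPRC and CD3E at 0 in every library, and the muscle markers summed to 514.9 to 2288 CPM with TNNT2 at 0. Endothelial markers were higher in vehicle (85.1 to 88.4 CPM) than in any treated library (48.1 to 70.8 CPM), and their part in the results below was not tested. In bulk libraries, fewer cells of a type and less RNA per cell cannot be told apart. Mitochondrial transcripts made up 1.24% to 2.12% of counts in vehicle, 1.53% to 2.84% with LPC, 2.16% to 4.17% with dantrolene and 2.33% to 3.19% with LPC + dantrolene. TMM scaling factors were 0.879 to 0.918 in vehicle and 0.923 to 1.15 in 8 of the 9 treated libraries. Both measures tended to be higher in treated libraries, as 7 of the genes described here were, and their part in the results was not tested. A pair of libraries stood apart from the rest of their groups for the genes described here, both from isolation 2: dantrolene (mitochondrial transcripts 4.17% of counts, the highest of the 12) and LPC + dantrolene (the 10 most abundant genes held 17.1% of counts, the highest of the 12, and the scaling factor was 0.863, the lowest). Where the genes described here are concerned, values without them are also given for many of the differences, though not for every one.

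Of the 9 genes, 7 were several times higher in each treated group than in vehicle: GOLGB1, GOLGA4, GCC2, TRIP11, EEA1, CCDC186 and KTN1. In these 7 genes every treated library of each treatment lay above every vehicle library, and all 7 were past the threshold used to call a gene higher (an adjusted p under 0.05 in edgeR's quasi-likelihood test), which the choice of genes largely fixes. In the whole table, 8.54% of all tested genes were called higher with LPC, 7.54% with dantrolene and 6.23% with LPC + dantrolene. The shares called lower were 0.144%, 1.26% and 0.9%, and none of the 9 genes was among them. Every treated library lay above every vehicle library for 16.6% of all genes with LPC, 16.1% with dantrolene and 4.71% with LPC + dantrolene. Since the genes were selected on these same differences, nothing is read from their counts. The shares over all genes also depended on single libraries: of the 1129 genes called higher with LPC, 997 with dantrolene and 824 with LPC + dantrolene, the counts became 668 without LPC replicate 2, 377 without dantrolene replicate 2, and 466 without replicate 3 or 1706 without replicate 2 of LPC + dantrolene. The other 2, GOLGA5 and GCC1, were not called against vehicle in any treatment.

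**Figure D1:**
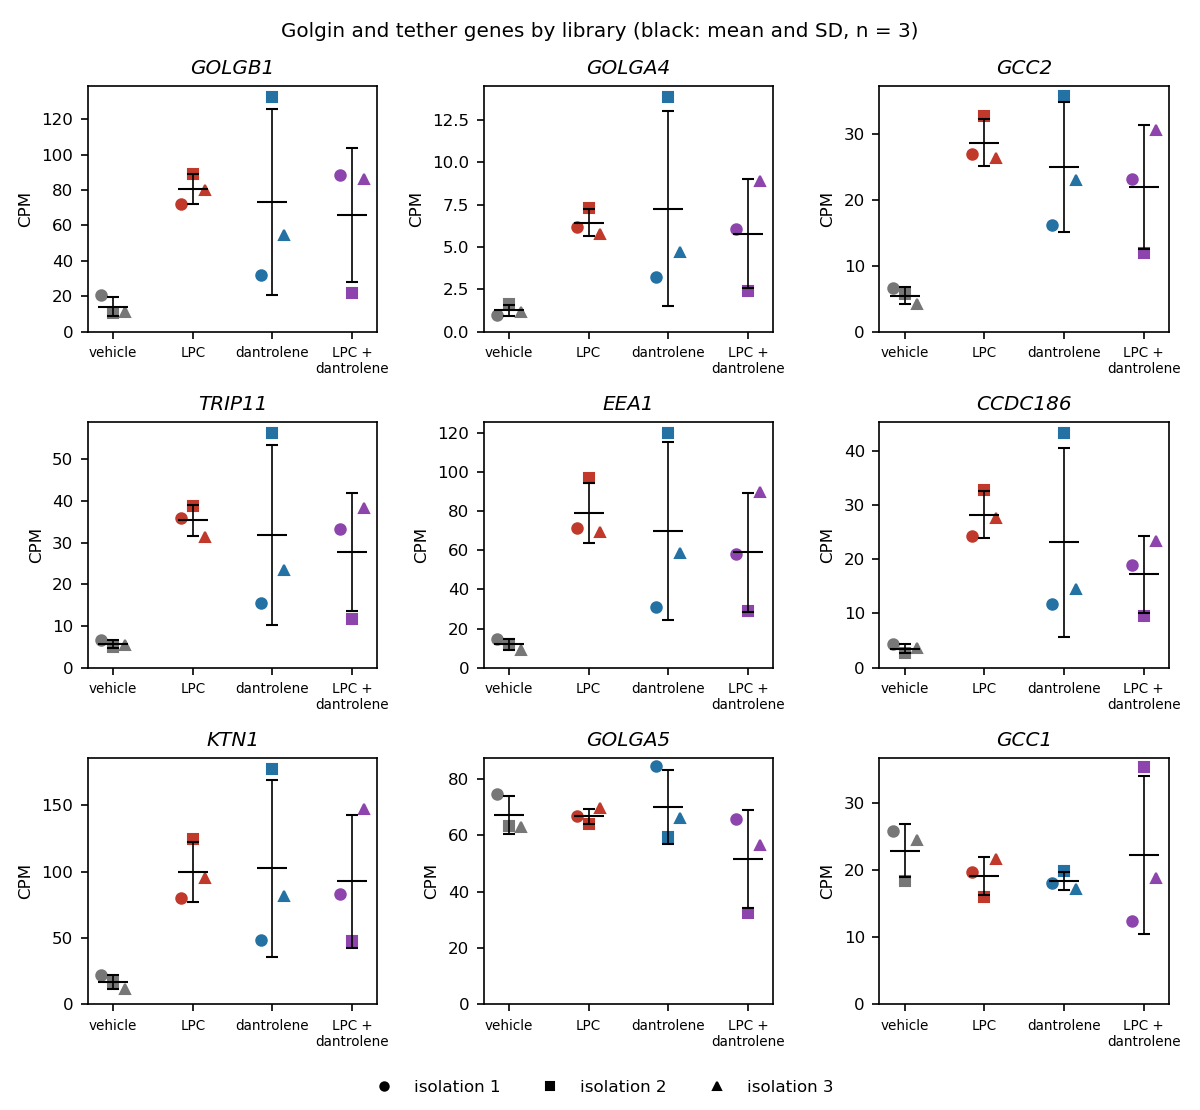
Level of each of the 9 genes in CPM (vertical axis, starting at 0) in the 12 libraries, by group. Symbols mark the primary isolation, and black bars give the mean and SD of 3 libraries. For the first 7 genes every treated library lies above every vehicle library, and the dantrolene library of isolation 2 is the highest in its group. GOLGA5 and GCC1 overlap between vehicle and each treatment.

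Giantin, encoded by GOLGB1, is a very long golgin held in the Golgi membrane by its own transmembrane segment and works with COPI vesicles. Its level was 20.4, 10.7 and 11.04 CPM in the vehicle libraries of isolations 1, 2 and 3, and 72.3, 89.1 and 80.1 CPM with LPC. With dantrolene it was 32.0, 133 and 54.8 CPM, and with LPC + dantrolene 88.7, 21.9 and 86.2 CPM. The LPC libraries lay close together, whereas the dantrolene libraries spanned 4.15-fold and the LPC + dantrolene libraries 4.06-fold. The lowest treated library (21.9 CPM) was just above the highest vehicle library (20.4 CPM). On the log2 scale, GOLGB1 was higher than in vehicle by 2.52 (SE 0.39) with LPC, 2.38 (SE 0.39) with dantrolene and 2.22 (SE 0.39) with LPC + dantrolene.

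GOLGA4 and GCC2 belong to the golgins that reach the trans-Golgi network through a carboxy-terminal GRIP domain and take part in traffic arriving from endosomes. GOLGA4 was a low-count gene in vehicle, with 21, 28 and 20 counts, or 1.00, 1.64 and 1.16 CPM. It stood at 6.20, 7.33 and 5.76 CPM with LPC, 3.23, 13.9 and 4.69 CPM with dantrolene, and 6.05, 2.42 and 8.88 CPM with LPC + dantrolene. No treated library overlapped vehicle, and the low counts gave this gene the widest errors of the 9, with log2 differences of 2.34 (SE 0.47), 2.53 (SE 0.47) and 2.20 (SE 0.47).

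GCC2 was at 6.58, 5.66 and 4.13 CPM in vehicle and at 26.8, 32.7 and 26.3 CPM with LPC. It reached 16.2, 35.7 and 22.9 CPM with dantrolene, and 23.1, 11.9 and 30.6 CPM with LPC + dantrolene. Its log2 differences from vehicle were 2.39 (SE 0.37), 2.19 (SE 0.36) and 2.00 (SE 0.36), the last being a 4.002-fold difference and the smallest of the 7 genes in any treatment. GCC1 carries the same kind of GRIP domain and serves the same membrane. Its vehicle level was 25.8, 18.3 and 24.4 CPM, against 19.7, 15.96 and 21.6 CPM with LPC and 18.0, 19.8 and 17.2 CPM with dantrolene. With LPC + dantrolene it ran 12.4, 35.3 and 18.8 CPM, and the library of isolation 2 that was low for the 7 genes was the highest of all 12 for GCC1. Its log2 differences were −0.26 (SE 0.34), −0.32 (SE 0.34) and −0.04 (SE 0.34), and the last one was −0.50 without that library.

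TRIP11 encodes a golgin of the cis-Golgi that catches highly curved vesicles. Its level was 6.72, 5.08 and 5.35 CPM in vehicle and 35.9, 38.8 and 31.4 CPM with LPC. It was 15.5, 56.3 and 23.5 CPM with dantrolene and 33.2, 11.6 and 38.4 CPM with LPC + dantrolene. The log2 differences were 2.62 (SE 0.39), 2.47 (SE 0.39) and 2.28 (SE 0.38). GOLGA5 encodes a transmembrane golgin that captures vesicles moving within the Golgi stack, and it lies 636.6 kb from TRIP11 on the same chromosome. In contrast to TRIP11 it was at 74.9, 63.5 and 63.0 CPM in vehicle and 66.8, 64.1 and 69.6 CPM with LPC. Its dantrolene libraries were at 84.8, 59.3 and 66.0 CPM and its LPC + dantrolene libraries at 66.0, 32.4 and 56.5 CPM. The log2 differences were −0.01 (SE 0.32), 0.06 (SE 0.32) and −0.38 (SE 0.32), and in every comparison the groups overlapped.

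EEA1 tethers early endosomes to one another, binding RAB5 and the lipid phosphatidylinositol 3-phosphate. It was at 14.8, 12.2 and 9.12 CPM in vehicle and at 71.5, 96.9 and 69.1 CPM with LPC. Dantrolene libraries held 31.2, 120 and 58.6 CPM and LPC + dantrolene libraries 57.9, 29.1 and 89.6 CPM. All 9 treated libraries were above the vehicle libraries, by 2.71 (SE 0.38), 2.53 (SE 0.38) and 2.29 (SE 0.37) on the log2 scale.

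CCDC186 encodes a coiled-coil protein of the Golgi region that is needed for the making of dense-core vesicles. Its difference from vehicle was the largest of the 9 genes with LPC and with dantrolene, and that of KTN1 with LPC + dantrolene, but without the dantrolene library of isolation 2 KTN1 (1.99) and EEA1 (1.90) were above CCDC186 (1.88) with dantrolene, and the ranks were not tested. CCDC186 was at 4.39, 2.63 and 3.60 CPM in vehicle, 24.3, 32.8 and 27.6 CPM with LPC, and 11.7, 43.2 and 14.5 CPM with dantrolene. With LPC + dantrolene it stood at 18.9, 9.44 and 23.3 CPM, below each of the LPC libraries. The log2 differences from vehicle were 2.99 (SE 0.40), a 7.94-fold difference, then 2.71 (SE 0.39) and 2.28 (SE 0.39).

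KTN1 encodes kinectin, an ER membrane protein that binds kinesin, and so stands for the ER among these genes. Its vehicle libraries held 21.6, 16.2 and 11.2 CPM and its LPC libraries 80.0, 124 and 94.8 CPM. With dantrolene it was at 48.5, 177 and 81.7 CPM, and with LPC + dantrolene at 82.7, 47.8 and 147 CPM. The log2 differences were 2.61 (SE 0.38), 2.65 (SE 0.38) and 2.50 (SE 0.38).

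Over the 7 genes the differences from vehicle ran from 5.07- to 7.94-fold with LPC, from 4.56- to 6.53-fold with dantrolene and from 4.002- to 5.66-fold with LPC + dantrolene. The median over all 9 genes was 2.52, 2.47 and 2.22 on the log2 scale, beside −0.18, −0.11 and −0.08 over all genes tested. Scaling to total counts alone moved those medians of all genes to −0.0023, 0.13 and 0.12. The 3 comparisons share the same vehicle libraries, so their similar sizes are not separate observations. Without the dantrolene library of isolation 2 the dantrolene differences of the 7 genes ran from 3.08-fold (GOLGB1) to 3.98-fold (KTN1). On the log2 scale they were then 1.63 for GOLGB1, 1.65 for GOLGA4, 1.77 for TRIP11, 1.84 for GCC2, 1.88 for CCDC186, 1.90 for EEA1 and 1.99 for KTN1. Without the LPC + dantrolene library of isolation 2, the LPC + dantrolene differences ran from 5.07-fold (GCC2) to 7.24-fold (KTN1). The LPC differences in that fit ran from 5.33-fold (GOLGA4) to 8.32-fold (CCDC186).

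**Figure D2:**
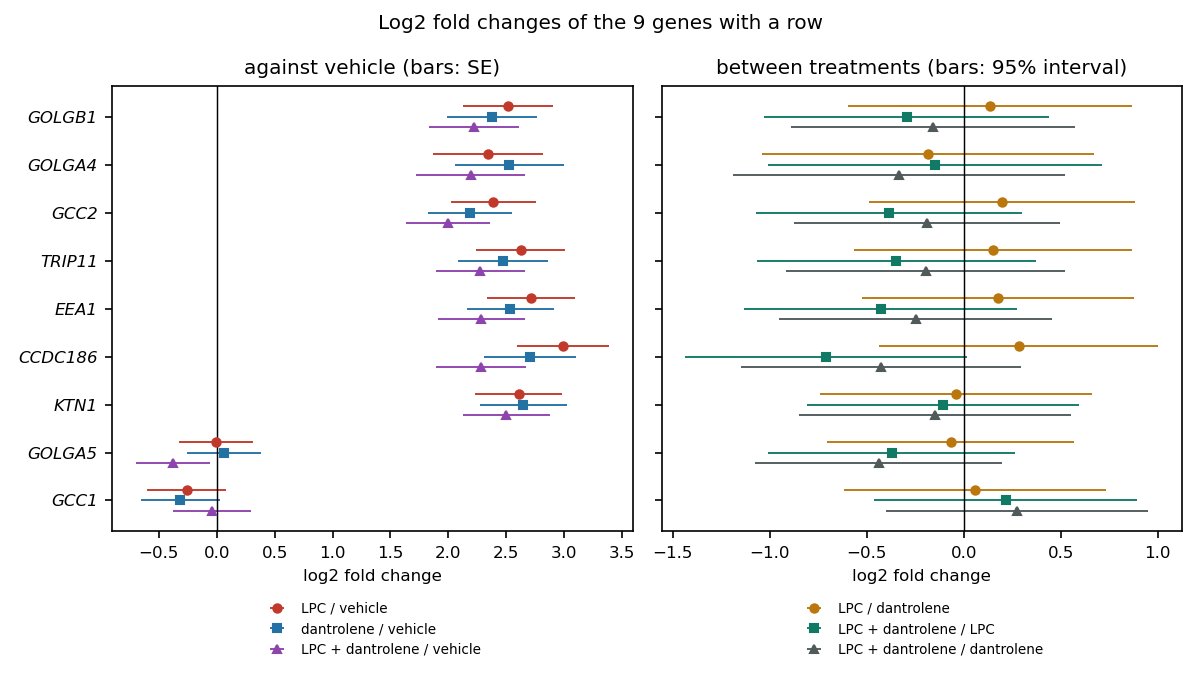
Log2 fold changes (horizontal axis) of the 9 genes, for each treatment against vehicle with SE bars (left) and between treatments with 95% intervals (right). Against vehicle 7 genes lie between 2.00 and 2.99 and GOLGA5 and GCC1 lie near 0. Between treatments every interval includes 0.

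The 3 comparisons between treatments do not use the vehicle libraries and were tested. They ask whether the level reached under LPC, dantrolene or both differed. By group means, LPC + dantrolene was the lowest of the 3 treatments for each of the 7 genes, and LPC was the highest for GOLGB1, GCC2, TRIP11, EEA1 and CCDC186. No neighbours in this order differed by the test, and the order changed when single libraries were left out, as given below. In edgeR's quasi-likelihood test 0 of the 9 genes were called between any pair of treatments, 0 were under 0.05 before adjustment, and DESeq2 also called 0. Among all genes 0.325% were called between LPC and dantrolene, 0.507% between LPC + dantrolene and LPC, and 0.0227% between LPC + dantrolene and dantrolene. These correspond to 43, 67 and 3 genes, and over the alternatives run the counts ranged from 8 to 110, from 7 to 169 and from 1 to 8.

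LPC against dantrolene gave log2 differences from −0.18 for GOLGA4 to 0.28 for CCDC186 among the 7 genes, with adjusted p = 1 for all 9 genes in edgeR's test. The 95% intervals of the 7 together ran from a ratio of 0.487 to one of 2.01, so differences of up to about that size remain possible. LPC + dantrolene against LPC ran from −0.11 (KTN1) to −0.71 (CCDC186), with intervals from 0.370 to 1.64. LPC + dantrolene against dantrolene ran from −0.15 (KTN1) to −0.43 (CCDC186), with intervals from 0.439 to 1.49. GOLGA5 was lower with LPC + dantrolene than with LPC by 0.37 on the log2 scale (95% interval −1.01 to 0.27) and GCC1 was higher by 0.22 (−0.46 to 0.89), neither beyond its interval.

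CCDC186 came closest to a difference. Its LPC + dantrolene libraries (9.44 to 23.3 CPM) did not overlap its LPC libraries (24.3 to 32.8 CPM). Those groups did not overlap, in either direction, for 9.78% of all genes tested. CCDC186 was lower in each of the 3 isolations. The log2 difference was −0.71 (SE 0.36, 95% interval −1.44 to 0.015), which did not pass correction (edgeR quasi-likelihood test, adjusted p = 0.773). Without the LPC + dantrolene library of isolation 2 the difference was −0.43, with an adjusted p of 0.924 by the same edgeR test.

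The order of the treatments depended on the pair of libraries that stood apart. Without the dantrolene library of isolation 2, LPC exceeded dantrolene by 1.11 for CCDC186, 0.89 for GOLGB1, 0.86 for TRIP11 and 0.82 for EEA1 on the log2 scale. These 4 genes were then under 0.05 before adjustment in edgeR's test, and the lowest adjusted p was 0.549. LPC also exceeded dantrolene by 0.70 for GOLGA4, 0.61 for KTN1 and 0.55 for GCC2. LPC + dantrolene was then above dantrolene for each of the 7 genes, from 0.16 (GCC2) to 0.60 (GOLGB1). Without LPC + dantrolene replicate 2 alone, the combined treatment was above LPC for GOLGA4 (0.20), KTN1 (0.18), GOLGB1 (0.11) and TRIP11 (0.006). It was below LPC for CCDC186 (−0.43), EEA1 (−0.12) and GCC2 (−0.11). Leaving out both libraries was tried after the data had been seen. LPC then exceeded dantrolene by 1.11 for CCDC186, with an adjusted p of 0.0519 in edgeR's test. The CCDC186 difference of LPC + dantrolene from LPC was then −0.42 (edgeR adjusted p = 0.814). In that setting 5 of the 9 genes were under 0.05 unadjusted for LPC against dantrolene. LPC + dantrolene then lay further above dantrolene, by 1.01 for GOLGB1, 0.91 for GOLGA4, 0.88 for TRIP11 and 0.82 for KTN1. It was above by 0.71 for EEA1, 0.69 for CCDC186 and 0.46 for GCC2. For that comparison 6 of the 9 genes were under 0.05 unadjusted, with the lowest adjusted p at 0.516 by edgeR. The share of all genes under 0.05 unadjusted in these settings is not given here. The 7 genes also moved together over the libraries (Pearson r 0.946 to 0.993), so nothing is read from these unadjusted counts. No gene of the 9 passed correction in any of these settings.

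The combined treatment can be set beside the sum of the single ones on the log2 scale. For the 7 genes, the LPC + dantrolene difference from vehicle minus the sum of the LPC and dantrolene differences ran from −2.58 (GCC2, SE 0.50) to −3.42 (CCDC186, SE 0.53). The same quantity was −0.43 (SE 0.45) for GOLGA5 and 0.53 (SE 0.48) for GCC1. Without the pair of libraries that stood apart it was smaller in size, −1.43 for GOLGA4, −1.50 for GOLGB1, −1.75 for TRIP11, −1.79 for KTN1, −1.93 for GCC2, −1.998 for EEA1 and −2.30 for CCDC186. This quantity is built from the differences that chose the genes and is a description.

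The 7 genes moved together from library to library. Their mean log2 level stood above the vehicle mean by 2.47, 2.82 and 2.50 in the LPC libraries of isolations 1, 2 and 3. It stood above by 1.47, 3.30 and 2.09 with dantrolene and by 2.37, 1.15 and 2.78 with LPC + dantrolene. The dantrolene library of isolation 2 was the highest of the 12 for each of the 7 genes, and the LPC + dantrolene library of the same isolation was the lowest of the 9 treated libraries for each of them.

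**Figure D3:**
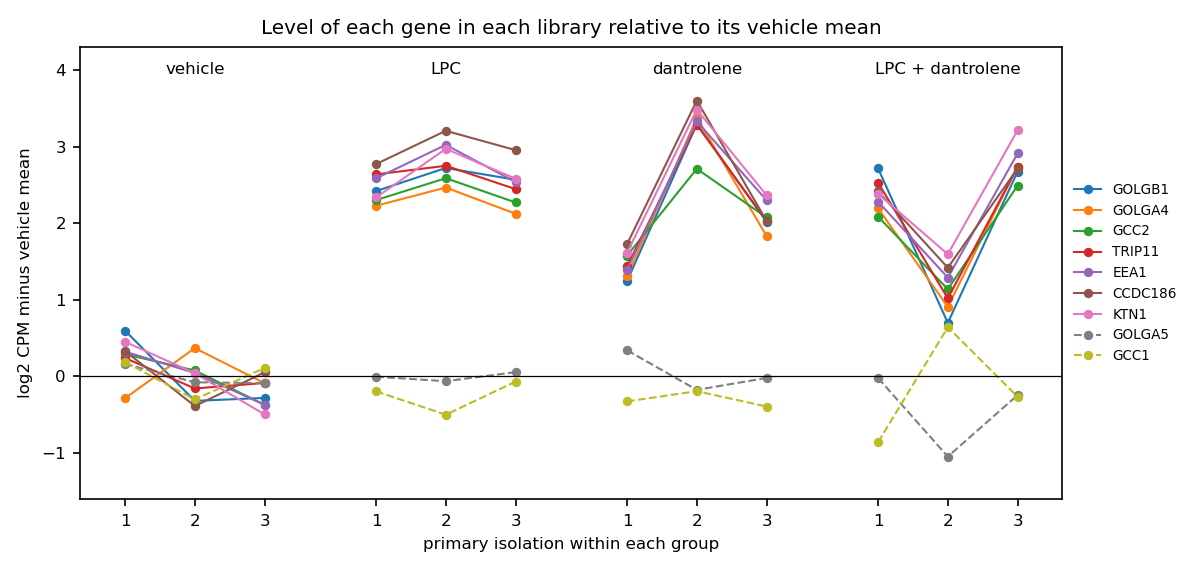
Log2 CPM of each gene minus its own vehicle mean (vertical axis) in the 12 libraries, ordered by group and isolation (horizontal axis), with lines only joining libraries of the same gene and group. The 7 genes with solid lines run together, from about 1 above vehicle in the LPC + dantrolene library of isolation 2 to about 3 above in the dantrolene library of isolation 2, while GOLGA5 and GCC1 (dashed) do not follow them.

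Over the 12 libraries the 21 pairs among the 7 genes had Pearson correlations of 0.946 to 0.993 in log2 CPM. With each group's mean removed the range was 0.833 to 0.984. GOLGA5 correlated with the 7 at −0.071 to 0.102 and GCC1 at −0.498 to −0.367. These are descriptions over 12 libraries that share groups, isolations and one scaling, and no test was made of them. The summed level of the 7 genes was 45.6 to 75.5 CPM in vehicle, 317 to 422 CPM with LPC, 158 to 579 CPM with dantrolene and 134 to 424 CPM with LPC + dantrolene. Each gene's share of that sum had a narrower range than its level. GOLGA4 had the widest relative range of share, 1.33% to 3.02% while its level ranged 13.8-fold, and GOLGB1 held 16.3% to 28.6%, GCC2 6.16% to 10.5% and CCDC186 4.85% to 8.23%. EEA1 held 18.6% to 23.0% of the sum while its level ranged 13.1-fold, and TRIP11 held 8.66% to 11.7% while its level ranged 11.08-fold. KTN1 held 24.5% to 35.6%, with group means of 27.7% in vehicle, 27.7% with LPC, 30.9% with dantrolene and 32.3% with LPC + dantrolene.

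Among all other tested genes, the 5 whose log2 level was most like the mean pattern of the 9 genes over the 12 libraries were EIF5B (r = 0.991), ARHGAP5 (0.990), RBM41 (0.990), SHOC2 (0.989) and ZNF638 (0.989). EIF5B, a translation initiation factor, averaged 20.3 CPM in vehicle and 92.7, 86.3 and 66.9 CPM with LPC, dantrolene and LPC + dantrolene. ZNF638 averaged 7.21 CPM in vehicle and 42.3, 37.9 and 35.2 CPM in the treated groups. None of the 5 is a Golgi tether.

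The 9 genes lie on 7 chromosomes of Sscrofa11.1 (RefSeq annotation). GOLGB1 is at chr13:138754803-138847254 and GOLGA4 at chr13:22125131-22250465, TRIP11 at chr7:113524406-113600411 and GOLGA5 at chr7:114237059-114273916. EEA1 is at chr5:90131707-90257014, CCDC186 at chr14:124468954-124521145, KTN1 at chr1:184881555-184990936, GCC2 at chr3:47718251-47759060 and GCC1 at chr18:20701685-20708053. TRIP11 shares 2007 bases with FBLN5, an extracellular matrix gene, and GOLGB1 shares 1462 bases with C13H7orf73. Whether the counting used strand is not given in the sources used here, so reads in those stretches cannot be assigned with certainty. FBLN5 did not move with TRIP11: its log2 differences from vehicle were −0.68, −0.53 and −0.43, none of them past the test (edgeR adjusted p = 0.313, 0.51 and 0.736).

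The 7 higher genes spanned 40.8 kb (GCC2) to 125 kb of genome from first to last base, GOLGA5 spanned 36.9 kb and GCC1 6.37 kb. GCC2 and GOLGA5 fell in the same span quintile of the tested genes, 21.48 to 42.82 kb. Across the whole table, longer genes were called higher more often. Of the 10811 tested genes with a span (81.8%), the share called higher with LPC was 1.71% in the shortest quintile and 4.03%, 9.02%, 16.4% and 16% in the successively longer quintiles. With dantrolene it went from 1.62% to 14.4% and with LPC + dantrolene from 1.57% to 11.6% between the shortest and the longest quintile. The median log2 difference of all genes with LPC went from −0.29 in the shortest quintile to 0.03 in the longest. The part of gene span in the levels of the 9 genes was not tested.

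**Figure D4:**
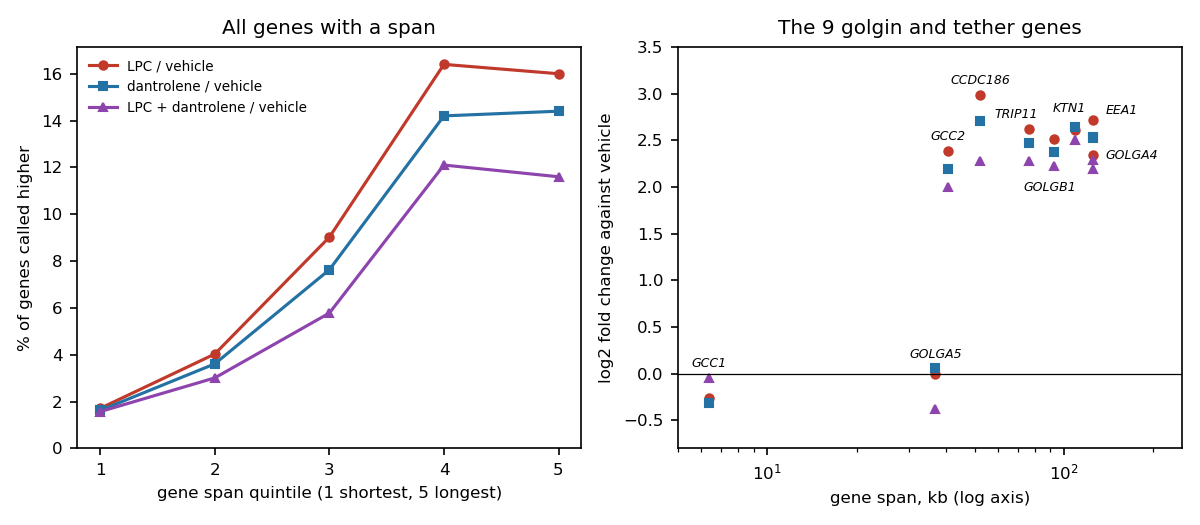
Left, share of all tested genes called higher against vehicle (vertical axis, percent) by quintile of genomic span (1 shortest to 5 longest), for each treatment. Right, log2 fold change of the 9 genes against their span in kb (log axis). The share called higher rises from about 1.6% to between 11.6% and 16%, and the 7 higher genes all span at least 40.8 kb.

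The partners of these proteins were described from 8 lists of Golgi, endosome and ER genes that hold none of the 9, with 120 genes tested. Of the 120, 19 were called higher with LPC, 19 with dantrolene and 16 with LPC + dantrolene, and 0 were called lower. The same 16 (13.3%) were called higher in all 3 treatments, against 723 (5.47%) of all genes tested. Between treatments 0 of the 120 were called, with 0, 4 and 0 under 0.05 before adjustment in edgeR's test for LPC against dantrolene, LPC + dantrolene against LPC, and LPC + dantrolene against dantrolene. DESeq2 also called 0.

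Other golgins and stacking proteins were also split. Of 12 tested, 4 were called higher in all 3 treatments: GORAB and BLZF1, TMF1, and USO1, a tether of vesicles arriving from the ER. GORAB averaged 4.91 CPM in vehicle and 18.5, 19.7 and 19.8 CPM with LPC, dantrolene and LPC + dantrolene, log2 differences of 1.91, 2.01 and 2.01 (edgeR adjusted p = 0.000144, 9.47e-05 and 0.000106). BLZF1, which partners the stacking protein GORASP2, was higher by 2.04, 1.98 and 2.03. TMF1 was higher by 2.04, 1.88 and 1.66, and USO1 by 1.48, 1.33 and 1.34. BICD1, a dynein adaptor, was called with dantrolene (1.14, edgeR adjusted p = 0.0275) and not with LPC (0.93, edgeR adjusted p = 0.104), with no call between those treatments, and its dantrolene call was lost without the dantrolene library of isolation 2 (edgeR adjusted p = 0.287). The remaining GRIP golgin GOLGA1 (0.24 with LPC) and the stacking proteins GORASP1 (−0.46) and GORASP2 (−0.27) did not pass. The list median was 0.39, 0.33 and 0.18 in the 3 treatments.

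Among 16 GTPases and helpers that recruit tethers, those called higher in all 3 treatments included RAB33B. RAB33B was higher by 1.64, 1.43 and 1.24, its LPC + dantrolene call being lost with isolation as a replicate block. RAB1A, which recruits several golgins, was called with LPC (1.28) and dantrolene (1.01), calls lost in 3 and 8 of 20 alternatives, the dantrolene call also with isolation as a replicate block. RAB5A, the partner of EEA1, was called with LPC (1.06, edgeR adjusted p = 0.0475). That RAB5A call was lost in 10 of 20 alternative analyses. ARL1, the recruiter of GRIP golgins, was not called with LPC (0.65, edgeR adjusted p = 0.306).

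Of 27 genes of multisubunit tethers, 4 were called higher in all 3 treatments. VPS50 and VPS54 belong to the related EARP and GARP complexes that receive carriers from endosomes, and TRAPPC8 and TRAPPC13 to the TRAPP complex that activates RAB1. VPS50 was higher by 2.09, 1.91 and 1.84 on the log2 scale, VPS54 by 1.44, 1.30 and 1.21, TRAPPC8 by 1.47, 1.33 and 1.06 and TRAPPC13 by 1.46, 1.12 and 1.24. With isolation as a replicate block, 1 of the 4, VPS50, was still called with LPC + dantrolene, and the dantrolene call of TRAPPC13 was also lost. The list median with LPC was −0.28, below the −0.18 of all genes.

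On the endosomal side, 3 of 18 genes were called higher in all 3 treatments. PIK3C3, the kinase that makes the lipid bound by EEA1, was higher by 2.00, 1.58 and 1.49, APPL1, a RAB5 effector of early endosomes, by 1.81, 1.57 and 1.53, and HOOK3, a dynein adaptor, by 2.22, 1.76 and 1.52. Among 9 genes of ER shape and kinesin-1, KIF5B and LNPK were called higher in all 3. KIF5B, a kinesin heavy chain, averaged 69.3 CPM in vehicle and 301, 227 and 198 CPM in the treated groups, log2 differences of 2.12, 1.71 and 1.51. LNPK, which stabilises junctions of the ER network, was higher by 1.5, 1.5 and 1.11, and its LPC + dantrolene call was lost with isolation as a replicate block. Without the dantrolene library of isolation 2, the dantrolene calls of KIF5B and APPL1 were lost (edgeR adjusted p = 0.0574 and 0.0944). The LPC + dantrolene calls of PIK3C3 and HOOK3 were lost without the LPC + dantrolene library of isolation 1 (edgeR adjusted p = 0.0959 and 0.096). That of APPL1 was lost without the library of isolation 3 (edgeR adjusted p = 0.0666).

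The coats and fusion proteins had call counts near the shares of all genes given above. Of 18 COPI and COPII coat genes 1 was called, COPB1, a COPI subunit, higher by 1.36 with LPC and 1.05 with dantrolene, and its dantrolene call was lost with isolation as a replicate block and in 8 of 20 alternatives in all. Of 11 tested SNAREs of the Golgi and endosomes 0 were called with any treatment in edgeR's test, with 1, 0 and 0 under 0.05 before adjustment. Of 10 genes of the Golgi stress response other than the 9, 0 were called. RAB1A, RAB5A, USO1 and BICD1, and the genes named here that were not called, were named after their values were seen.

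**Figure D5:**
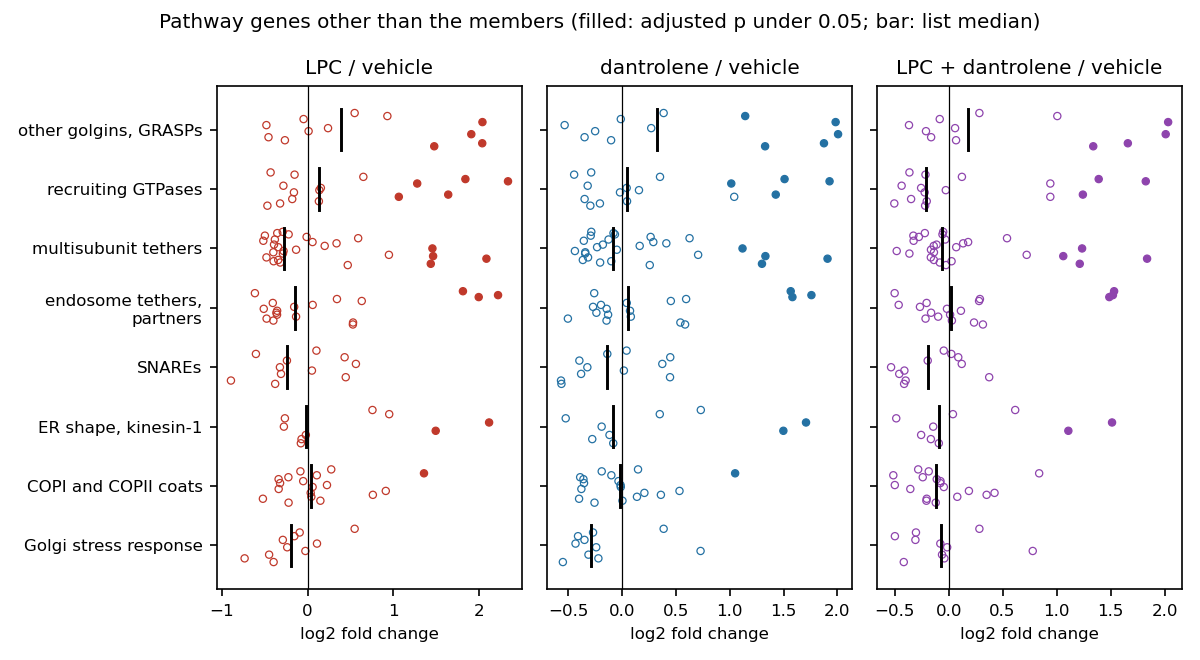
Log2 fold change against vehicle (horizontal axis) of each tested gene in the 8 lists, 1 panel per treatment. Filled points have an adjusted p under 0.05 and black bars are list medians. Called genes all lie to the right, at about 1.01 or more, in 6 of the 8 lists, and SNAREs and the Golgi stress response hold none.

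Of the 16 partners called in all 3 treatments, those also called in all 3 under each of the 20 alternative analyses included BLZF1, GORAB, TMF1 and VPS50. With LPC + dantrolene, the calls of TRAPPC8, LNPK, TRAPPC13, RAB33B, VPS54 and USO1 were lost in 5 or more of the 20. Without LPC + dantrolene library 1 or 3, the count with LPC + dantrolene was 8, and without dantrolene library 2 the count with dantrolene was 8.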

How the data were processed

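Gene counts of 12 paVIC libraries (4 groups of 3) were deposited by the authors as whole-number counts after ComBat adjustment for isolation, so the counts are not raw reads and the adjustment's degrees of freedom were not charged to the tests. The study's methods name STAR for alignment, whereas the submitters' processing notes list HISAT2 2.0.5, R 4.1.1 and DESeq2 1.32.0, with Sscrofa11.1. The authors' 4 comparison tables (fold changes and p-values) were not used.

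Counts were filtered with filterByExpr, scaled by TMM and fitted with edgeR 4.0.16 (quasi-likelihood, R 4.3.3) over all 12 libraries with group as the only term. Benjamini-Hochberg adjustment covered the 13216 genes tested, and an adjusted p under 0.05 was a call. SE was taken as the log2 difference divided by the square root of F. CPM values are counts scaled to TMM library size, and log2 CPM used a prior count of 2. A value of 3 counts corresponded to 0.114 to 0.186 CPM. The script was tested on simulated data. Of the genes tested, 10923 had a symbol in the count table, 572 took one from a gene name table and 1721 had none.

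The genes and lists were chosen with earlier results of these data known. Genes named from the partner lists were up to 3 in each direction per list and comparison with the smallest adjusted p, and the 5 most alike genes were those with the highest Pearson r to the mean standardised log2 CPM of the 9. Isolation numbers follow the replicate numbers in the labels and pair the libraries. The study's methods give 1 replicate per group from each isolation. Deviations from group means correlated at −0.536 to 0.207 (median −0.152) over 18 same-isolation pairs, a quantity that ComBat adjustment itself sets. The p-values measure the spread between libraries of a group that was left after the ComBat adjustment for isolation. They do not cover the differences between isolations that the adjustment took out. Alternatives were RLE scaling, total counts, no filter, at least 10 counts in every library, DESeq2 1.42.0, only the groups compared, isolation as a replicate block and each library left out. The values of some partner genes are not reported here.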

Additional observations from a re-analysis of the deposited data

How the results depend on the processing

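Between treatments 0 of the 9 genes were called under every one of the 20 alternatives run. Against vehicle, where the choice of genes fixes the outcome, their calls are no sign of stability. With a replicate block for isolation the counts were 18, 15 and 11 for the 120 partners with LPC, dantrolene and LPC + dantrolene, 11 partners in all 3, and 872, 740 and 559 over all genes. With only the groups compared, the partners called higher with LPC + dantrolene and in all 3 treatments were 10 each (16 each in the analysis reported), and 1 partner was called lower with LPC. Leaving out 1 library at a time, partners called higher ranged from 8 to 22 with dantrolene, 8 to 23 with LPC + dantrolene and 8 to 22 in all 3, and partners called lower from 0 to 1 with LPC and 0 to 2 with LPC + dantrolene. The low counts of 8 came without dantrolene replicate 2, LPC + dantrolene replicate 1 or LPC + dantrolene replicate 3, and counts were 9 to 12 without vehicle replicate 2 or 3. With dantrolene replicate 2 and LPC + dantrolene replicate 2 left out together, an alternative added after the data were seen, 2 partners were called lower with LPC and 4 with LPC + dantrolene. The causes were not tested. A correction for coding length was planned and not run, because no length table was used here. With 3 libraries a group the intervals between treatments stayed wide, and GOLGA4, at 20 to 28 counts in vehicle, was limited by depth.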
